A study of Homo sapiens with 24 samples.

Results

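The 10 genes described here encode the cyclins, kinases and inhibitors that act in the G1 phase of the cell cycle. They were chosen by gene symbol, among the 33127 genes to which the deposited transcripts could be assigned, as the D-type cyclins *CCND1*, *CCND2* and *CCND3*, the E-type cyclins *CCNE1* and *CCNE2*, the kinases *CDK2*, *CDK4* and *CDK6*, and the CIP/KIP inhibitors *CDKN1B* and *CDKN1C*. Poly-A RNA of A549, an established cell line from a human lung adenocarcinoma, was sequenced every 2 hours from 1 to 11 hours of exposure to 100 nM of the synthetic glucocorticoid dexamethasone (dex), given in ethanol, or to the vehicle ethanol (EtOH) alone at 0.02% of the medium. Each of the 12 groups held 2 libraries by the labels, which makes 24, while the authors' methods describe triplicates. The labels call them biological replicates without saying whether they came from separate cultures, so p-values measure the spread between these libraries. All groups were the same single cell line and no library from before exposure was used here, so dex is set against EtOH of the same hour, and neither the phase of the cell cycle nor protein was measured.

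In G1, D-type cyclins bind CDK4 and CDK6 and E-type cyclins bind CDK2, and the active kinases phosphorylate the retinoblastoma protein, which frees E2F factors to transcribe the genes of DNA replication. The CIP/KIP proteins p21 (*CDKN1A*), p27 (*CDKN1B*) and p57 (*CDKN1C*) bind cyclin-CDK complexes and inhibit those that hold CDK2, while INK4 proteins such as p16 (*CDKN2A*) bind CDK4 and CDK6 alone. Glucocorticoids slow the proliferation of many epithelial cells, and A549 is known to have lost *CDKN2A* by a homozygous deletion. RNA of a population of cells cannot tell fewer cells in a phase from less RNA per cell.

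Library totals ranged from 6708864 to 13748598 counts, with a median of 10109393.5. Known glucocorticoid target genes were higher with dex. At 5 hours the log2 fold change of dex over EtOH was 3.75 for *FKBP5*, 4.49 for *TSC22D3* and 3.13 for *PER1*. Of 6 epithelial markers, *KRT8* and *KRT18* were at 1436 normalised CPM or more in every library, *KRT7* at 670 or more, and *KRT19* and *EPCAM* at 4.09 to 21.3. With dex *KRT7*, *KRT8* and *KRT18* were called higher from 3 to 11 hours and *CDH1* at 5 and 7 hours, while *EPCAM* was called lower at 5, 7 and 9 hours and *KRT19* at 5 and 9 hours. Of the 7 listed markers of other cell types in the table *CD3E* had 0 counts and *VWF* had 2 in all libraries together. *PTPRC* had 10, *DCN* 37, *COL3A1* 110, *CD68* 1019 and *COL1A1* 3545. The macrophage marker *CD68* was at 2.64 to 6.05 CPM over the libraries. The summed level of these 7 markers was higher with dex at 3 hours, at 21.6 to 25.6 CPM against 14.97 to 18.7 CPM with EtOH, and lower at 5, 7 and 9 hours, at 9.40 to 12.96 CPM against 20.8 to 26.4 CPM. *COL1A1*, a collagen gene of mesenchymal cells, was their only member called, higher at 3 hours and lower at 5, 7 and 9 hours. The part of either list in the results below was not tested. A level is given as normalised CPM, the counts relative to the total of a library (CPM) after scaling by edgeR's trimmed mean of M values (TMM), for which the counts of all transcripts of a gene were summed. A gene is called higher or lower where the quasi-likelihood F-test of edgeR, adjusted by Benjamini-Hochberg over 19897 features, gave an adjusted p of at most 0.1, with each time point fitted by itself as 2 dex against 2 EtOH libraries.

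The G1 genes did not respond to dex in 1 direction, and the D-type cyclins had calls in both. *CCND1* and *CDKN1C* were called higher with dex, and *CCND3* and *CDK6* lower, each at the 5 time points from 3 to 11 hours. *CDK2* was called lower at 5, 7 and 9 hours and *CCNE2* at 5 and 7 hours. *CCNE1* was lower at 7 hours, *CDKN1B* was higher at 7 hours, *CDK4* was called at no time point, and *CCND2* had too few counts to be tested.

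**Figure D1:**
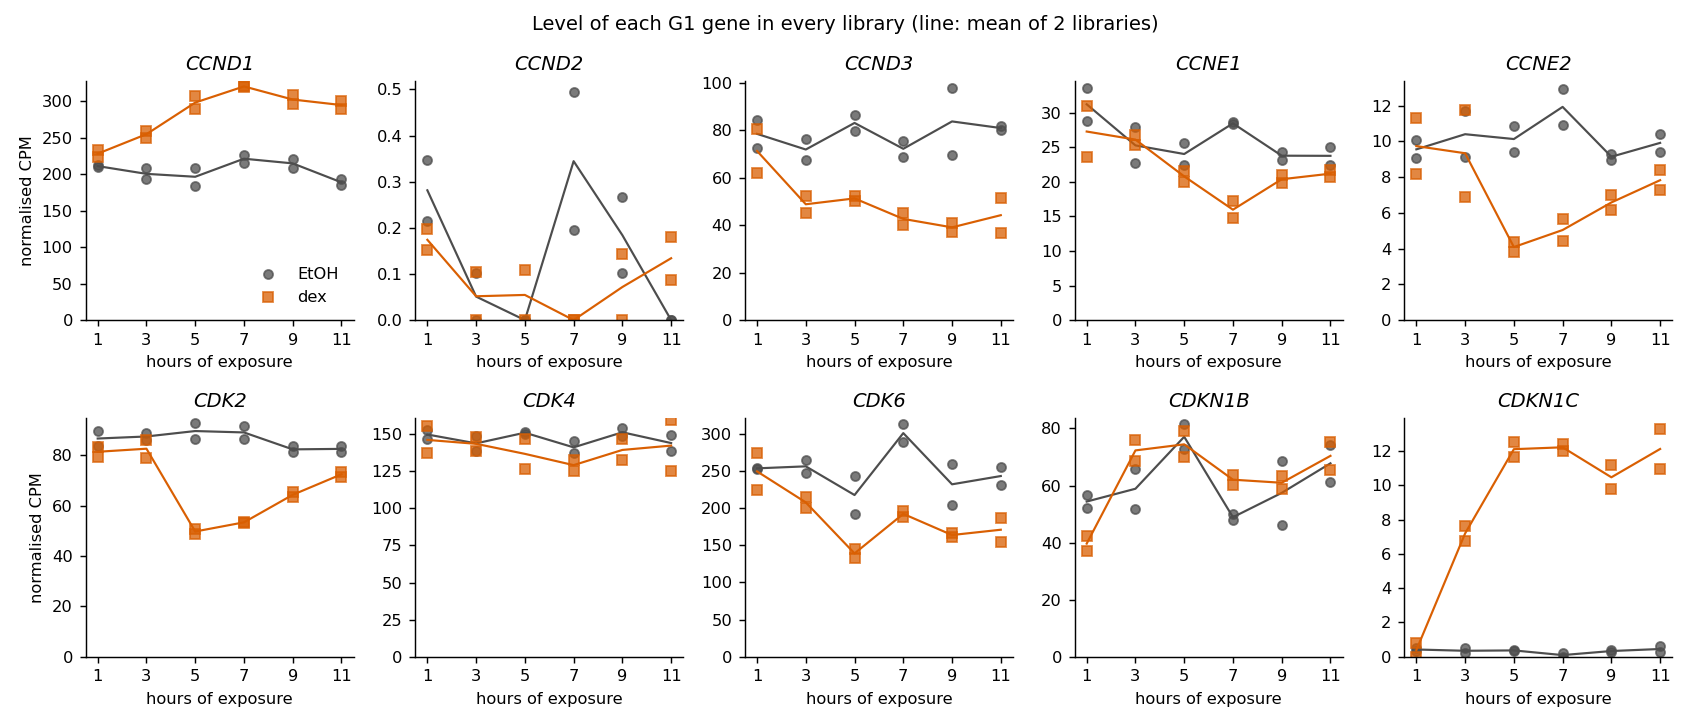
Level of each of the 10 G1 genes in normalised CPM (vertical axis, from 0) against hours of exposure (horizontal axis), with 1 point for each EtOH (grey circles) and dex (orange squares) library and lines through the mean of 2 libraries. The dex points of *CCND1* lie above and those of *CCND3* and *CDK6* below the EtOH points from 3 to 11 hours, *CDKN1C* is near 0 without dex, and *CDK2* and *CCNE2* dip at 5 hours.

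At 1 hour, 0 of the 9 tested members were called, against a background of 0.864% of all features (0.523% higher and 0.342% lower). At an unadjusted p under 0.05 there was 1 member in edgeR, *CDKN1B*, and DESeq2 called 0. At 3 hours 2 members were higher and 2 lower, where 12.9% of all features were called (7.66% higher and 5.29% lower). At 5 hours 2 were higher and 4 lower (background 23.1%, of which 11.2% higher and 11.9% lower), and at 7 hours 3 were higher and 5 lower (background 25.8%, with 13.4% and 12.4%). The counts were then 2 higher and 3 lower at 9 hours (background 18.2%, with 9.79% and 8.42%), and 2 higher and 2 lower at 11 hours (background 8.58%, with 5.31% and 3.27%). The largest number of members was thus called at 7 hours, 8 of 9, which is also when the background was highest. The members were chosen with earlier results of these data known, so their counts beside the background are a description. *CDKN1C*, among the higher members from 3 to 11 hours, passed the filter on low counts through its dex libraries alone. The median log2 fold change of the 9 members was -0.03 at 1 hour, -0.01 at 3 hours, -0.22 at 5 hours, -0.65 at 7 hours, -0.21 at 9 hours and -0.17 at 11 hours, while the median of all features lay between -0.01 and 0.00. Among the tested members the 4 libraries of a time point separated without overlap for 3 at 1 hour, 5 at 3 hours, 8 at 5 hours, 9 at 7 hours, 8 at 9 hours and 7 at 11 hours. The same held for 34.8%, 50.6%, 54.4%, 57%, 53.9% and 45.1% of all features in that order.

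**Figure D2:**
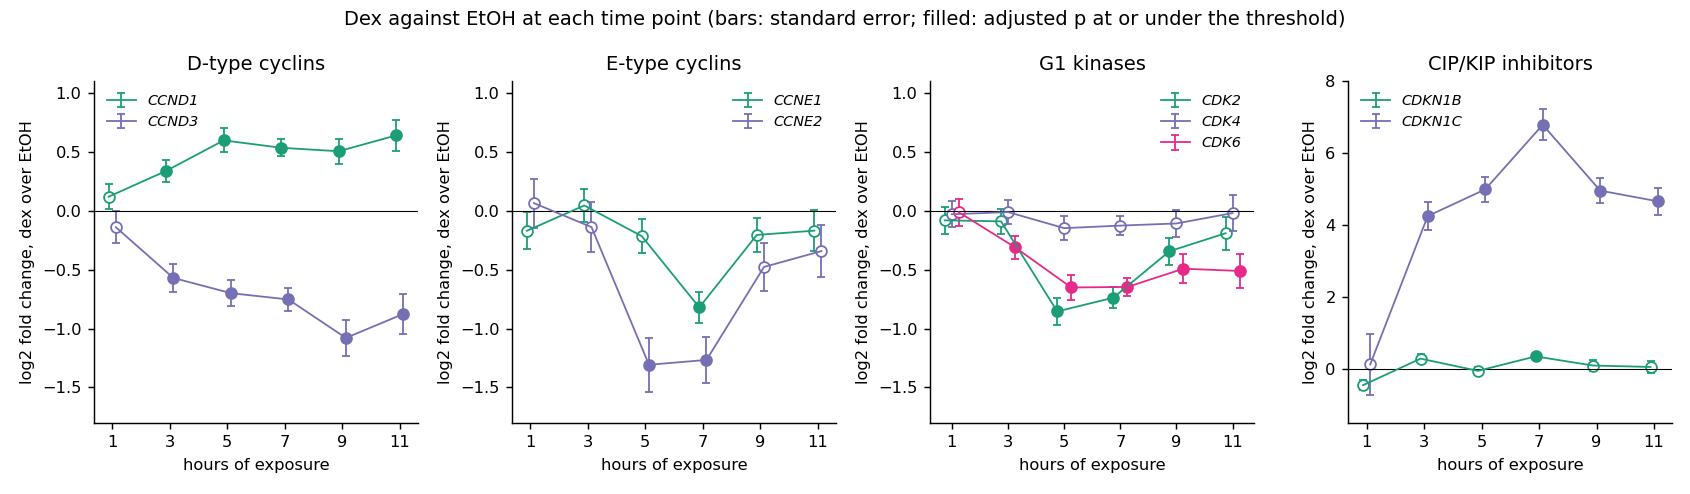
Log2 fold change of dex over EtOH (vertical axis, with bars for the standard error) against hours of exposure for the 9 tested members in 4 panels by family; filled points are called at an adjusted p of at most 0.1, and the panel of inhibitors has a wider axis. *CCND1* and *CCND3* diverge from 3 hours on, and the values of *CDK2* and *CCNE2* are lowest at 5 hours and closer to 0 at 11 hours; the height of *CDKN1C* at 7 hours rests on 2 EtOH counts.

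Cyclin D1 (*CCND1*, ENSG00000110092.3) is the D-type cyclin through which many growth signals reach CDK4 and CDK6. The gene lies on chromosome 11 of GRCh38 from 69641087 to 69654474, and 97.66% of its counts fell on a transcript of 5 exons. Its level was 223 and 233 CPM in the dex libraries against 210 and 212 in the EtOH libraries at 1 hour, and 250 and 259 against 208 and 193 at 3 hours. At 5 hours it was 289 and 307 against 184 and 209, and at 7 hours 320 and 321 against 216 and 227. The last time points had 308 and 297 against 221 and 209 at 9 hours, and 289 and 300 against 193 and 185 at 11 hours. Both dex libraries were above both EtOH libraries at all 6 time points. The log2 fold change was 0.12 at 1 hour, where it was not called, then 0.34 at 3 hours (standard error 0.10, edgeR adjusted p = 0.0198) and 0.60 at 5 hours (standard error 0.10, edgeR adjusted p = 9.66e-06). It was 0.53, 0.50 and 0.64 at 7, 9 and 11 hours (edgeR adjusted p = 5.20e-07, 0.00469 and 0.00791). Leaving out 1 library ended the call at 3 hours without EtOH replicate 2 (edgeR adjusted p = 0.178), at 9 hours without dex replicate 1 or 2 (0.198 and 0.142) and at 11 hours without EtOH replicate 1 or 2 (0.196 and 0.320), while the log2 fold change stayed between 0.28 and 0.68 in these refits. Of the 50-base stretches of its transcripts, 9.13% also lie on the other strand in transcripts of *LTO1*, and *LTO1* itself was called at no time point, at 8.04 to 10.3 CPM as a group mean.

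Cyclin D3 (*CCND3*, ENSG00000112576.12), on chromosome 6 from 41934933 to 42050357, binds the same kinases. In contrast to *CCND1* it was lower with dex. At 1 hour the libraries overlapped, at 61.8 and 80.6 CPM with dex against 72.4 and 84.4 with EtOH. At 3 hours the levels were 52.4 and 45.2 against 67.3 and 76.3, and at 5 hours 52.1 and 50.3 against 86.5 and 79.5. At 7 hours they were 45.2 and 40.0 against 68.7 and 75.5. Every dex library from 3 hours on was below every EtOH library of its hour. At 9 hours the dex libraries had 37.0 and 41.1 CPM and the EtOH libraries 69.7 and 97.6, and at 11 hours 36.8 and 51.5 against 80.1 and 81.6. The log2 fold change was -0.57 at 3 hours (standard error 0.12, edgeR adjusted p = 0.000774), -0.70 at 5 hours, -0.75 at 7 hours, -1.08 at 9 hours (standard error 0.15, edgeR adjusted p = 0.000180) and -0.88 at 11 hours (standard error 0.17, edgeR adjusted p = 0.00522). No alternative that was run ended any of these 5 calls. The counts of *CCND3* are spread over many overlapping transcripts, of which the largest held 15.53%. At 3, 7, 9 and 11 hours all 11 tested transcripts had a negative log2 fold change, and 5, 6, 8 and 6 of them were called lower. At 5 hours 9 of the 11 were negative and 6 called lower, and the highest log2 fold change was 0.46. Here and for the genes below, the transcripts of a gene overlap and the placement of reads that match several is not given. Numbers of agreeing transcripts are therefore not independent support. Cyclin D2 (*CCND2*, ENSG00000118971.7), on chromosome 12 from 4273772 to 4305350, had 28 counts in all 24 libraries together, at most 5 in a library and none in 10 of them. It did not pass the filter on low counts, and at this depth no effect of dex on it could be detected.

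As a share of the family, per kilobase of the transcript with most counts, *CCND1* made up 50.8% to 60.5% of the summed level of the D-type cyclins in the EtOH libraries. It made up 58.3% and 63.6% at 1 hour of dex and 69.8% to 80.1% in the dex libraries from 3 to 11 hours. These shares were not tested, and they follow from the levels of *CCND1* and *CCND3* given above. The counts of *CCND3* were spread over many transcripts, and the placement of reads that match several is not given. The size of the shares may depend on that placement.

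**Figure D3:**
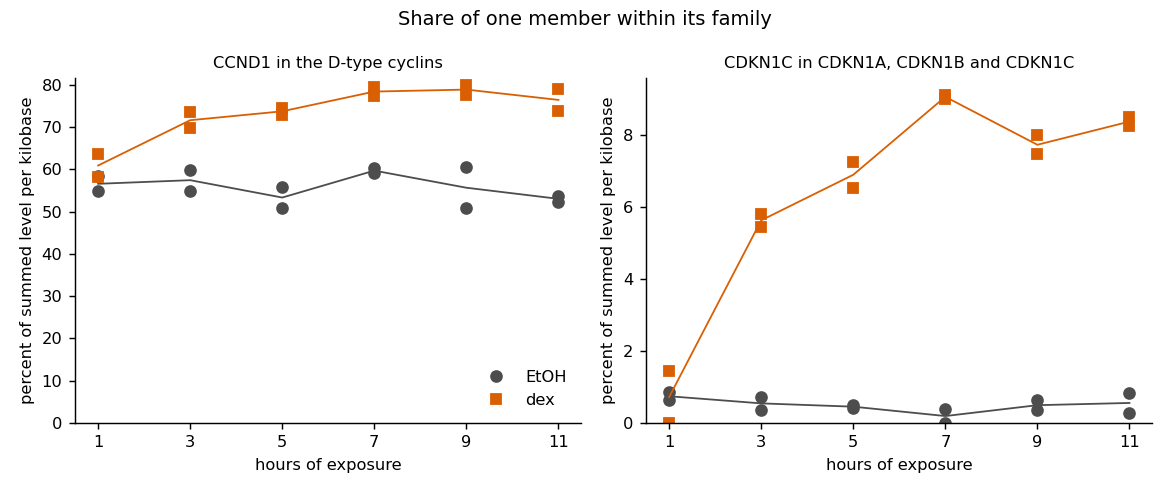
Share, in percent of the summed level per kilobase, of *CCND1* in the D-type cyclins (left) and of *CDKN1C* in the CIP/KIP genes *CDKN1A*, *CDKN1B* and *CDKN1C* (right), against hours of exposure, with 1 point per library and lines through the means. From 3 hours on every dex point lies above every EtOH point in both panels, at 69.8% to 80.1% against 50.8% to 60.5% on the left and at 5.45% to 9.11% against 0.853% or less on the right.

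Cyclins E1 and E2 activate CDK2 late in G1, and their genes are targets of E2F factors. *CCNE1* (ENSG00000105173.13), on chromosome 19 from 29811898 to 29824308, was called lower at 7 hours, where the dex libraries had 17.2 and 14.8 CPM and the EtOH libraries 28.3 and 28.6. There it was lower by a log2 fold change of -0.82 (standard error 0.13, edgeR adjusted p = 5.62e-06), and 4 of its 5 transcripts were called lower. At that hour the mean of the EtOH libraries was higher than at 3, 5, 9 or 11 hours. The mean of the dex libraries was lower than at any other time point. At 5 hours the levels were 21.6 and 20.0 CPM with dex against 22.5 and 25.6 with EtOH, at 9 hours 19.8 and 21.0 against 23.2 and 24.4, and at 11 hours 21.7 and 20.7 against 22.5 and 25.1. Both dex libraries were below both EtOH libraries at these 3 time points as well, by a log2 fold change of -0.17 to -0.22 that was not called. At 1 and 3 hours the libraries overlapped, at 31.0 and 23.6 CPM with dex against 33.7 and 28.8 with EtOH, and at 25.4 and 26.9 against 27.9 and 22.7.

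*CCNE2* (ENSG00000175305.17), on chromosome 8 from 94879770 to 94896678, was expressed at a lower level than *CCNE1*. Its dex libraries had 3.82 and 4.36 CPM at 5 hours against 10.9 and 9.40 with EtOH, and 4.41 and 5.67 at 7 hours against 12.9 and 10.9. This gave a log2 fold change of -1.31 at 5 hours (standard error 0.23, edgeR adjusted p = 1.73e-05) and -1.27 at 7 hours (standard error 0.20, edgeR adjusted p = 5.62e-06), the largest falls among the members. At 9 hours the dex libraries had 7.03 and 6.15 CPM against 8.99 and 9.31, and at 11 hours 7.27 and 8.39 against 10.4 and 9.41, which separated the groups without a call (log2 fold change -0.48 and -0.34). At 1 hour the levels were 11.3 and 8.17 against 10.1 and 9.06, and at 3 hours 6.92 and 11.8 against 11.7 and 9.11, and the libraries overlapped. Of the 50-base stretches of *CCNE2*, 42.11% also lie on the other strand in transcripts of *INTS8*, a subunit gene of the Integrator complex, and the sources used here do not state whether strand was used in counting. *INTS8* itself was lower with dex at 5 and 7 hours, by a log2 fold change of -0.37 and -0.29. The values of *CCNE2* were lower than these, but without strand the reads of the overlapping parts cannot be told apart.

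CDK2 (ENSG00000123374.10), the kinase of cyclins E and A, is encoded on chromosome 12 from 55966769 to 55972784. The level of *CDK2* was nearly the same in the 12 EtOH libraries, at 81.2 to 92.8 CPM. With dex it was 83.5 and 79.4 at 1 hour and 79.0 and 86.3 at 3 hours, where it overlapped with EtOH at 3 hours (85.9 and 89.1) and was just below it at 1 hour (83.6 and 89.8). It fell to 48.9 and 50.7 at 5 hours against 86.6 and 92.8, and stood at 53.5 and 53.3 at 7 hours against 86.7 and 91.6. The dex libraries were closer to EtOH again at 9 hours, with 63.4 and 65.3 against 83.6 and 81.2, and at 11 hours, with 71.5 and 73.5 against 81.5 and 83.7. The log2 fold change was -0.86 at 5 hours (standard error 0.11, edgeR adjusted p = 4.04e-08), -0.74 at 7 hours (standard error 0.09, edgeR adjusted p = 6.10e-08), -0.34 at 9 hours (standard error 0.12, edgeR adjusted p = 0.0623) and -0.19 at 11 hours, where it was not called. The call at 9 hours was lost with DESeq2 (adjusted p = 0.194), with 1 transcript in place of the sum (edgeR adjusted p = 0.471), and without dex replicate 1 or 2 (0.498 and 0.392). At 5 and at 7 hours 5 of the 6 transcripts, which are not independent measures, were called lower and the remaining one had the same sign. Of its 50-base stretches 14.27% are shared on the other strand with *PMEL* and AC025162.1, which had group means of at most 1.45 and 2.52 CPM, and AC025162.1 was itself called lower at 9 hours.

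CDK6 (ENSG00000105810.9) and CDK4 (ENSG00000135446.16) are the partners of the D-type cyclins. *CDK6*, on chromosome 7 from 92604921 to 92836594, was at 274 and 225 CPM with dex at 1 hour, on either side of the EtOH libraries (253 and 254). It was 200 and 215 against 265 and 247 at 3 hours, 145 and 132 against 191 and 243 at 5 hours, and 187 and 196 against 312 and 289 at 7 hours. At 9 hours it was 167 and 160 against 260 and 204, and at 11 hours 187 and 155 against 231 and 254. The dex libraries were below the EtOH libraries at each hour from 3 to 11. The log2 fold change was -0.31, -0.65, -0.65, -0.49 and -0.51 at these 5 time points (edgeR adjusted p = 0.0351, 8.60e-06, 1.85e-08, 0.0147 and 0.0497). The call at 3 hours was lost without dex replicate 1 or EtOH replicate 1 (edgeR adjusted p = 0.298 and 0.329) and in a single fit over 24 libraries (edgeR adjusted p = 0.149). That at 9 hours was lost without either dex replicate (edgeR adjusted p = 0.237 and 0.296), and that at 11 hours without either EtOH replicate (edgeR adjusted p = 0.332 and 0.632). The calls at 5 and 7 hours were made in every alternative.

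*CDK4*, on chromosome 12 from 57747727 to 57756013, differed from *CDK6* in that it was not called at any time point. It ranged from 137 to 154 CPM over the 12 EtOH libraries and from 125 to 159 over the 12 dex libraries. The log2 fold change of *CDK4* lay between -0.15 at 5 hours (standard error 0.10, edgeR adjusted p = 0.377) and -0.01 at 3 hours (standard error 0.10, edgeR adjusted p = 0.968), and no alternative gave a call. For this gene 32.02% of the 50-base stretches are shared on the other strand, with *TSPAN31*, *OSBPL2* and *ZC3H14*. The overlapping neighbour *TSPAN31* was not called at any time point either, at 59.2 to 72.4 CPM as a group mean. Whether the effects of dex on *CDK4* and *CDK6* differ was not tested directly.

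Promoter sequence was available for 5 members, *CCND3*, *CCNE1*, *CDK4*, *CDK6* and *CDKN1B*, as 8 windows of the 250 bases before a RefSeq transcription start on GRCh38.p14. Letters were searched on both strands. The E2F-like TTTNNCGC was in none of the 8 windows and in 5.92% of all 35116 promoters, and the full palindrome of the glucocorticoid response element was likewise in none of the 8 and in 1 of all promoters. The E2F-like TTCCGCGC, chosen after the sequences were seen, was in 1.05% of all promoters and in the windows of *CCNE1* and *CDK4*. GGGCGG, the letters bound by SP1, was in 42.64% of all promoters, with 7 matches for *CCNE1*, 3 for *CDK4*, 1 for *CDKN1B*, 3 in 1 of the 2 windows of *CDK6*, and 2 and 5 in 2 of the 3 windows of *CCND3*. CCAAT was in 32.01%, with 2 matches for *CDKN1B* and 1 in each of 2 windows of *CCND3*. The windows of *CCNE1* and *CDK4* are shown because they share TTCCGCGC, given in capitals, while *CCNE1* was lower at 7 hours and *CDK4* was not called. They are chr19:29811741-29811990 on the plus strand, where the GENCODE start of the gene lies inside the window, and chr12:57752311-57752560 on the minus strand. The window of *CDK4* lies inside the GENCODE span of the gene, whose start on that strand is at 57756013. The first capital is at position -44 from the RefSeq start in *CCNE1* and -60 in *CDK4*. A match of letters describes the sequence and says nothing of binding.
CCNE1: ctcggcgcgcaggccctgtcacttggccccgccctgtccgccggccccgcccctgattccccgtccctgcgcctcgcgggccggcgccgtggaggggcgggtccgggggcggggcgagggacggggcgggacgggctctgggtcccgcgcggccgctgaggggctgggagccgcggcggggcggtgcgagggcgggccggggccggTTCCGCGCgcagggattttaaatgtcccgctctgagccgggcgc
CDK4: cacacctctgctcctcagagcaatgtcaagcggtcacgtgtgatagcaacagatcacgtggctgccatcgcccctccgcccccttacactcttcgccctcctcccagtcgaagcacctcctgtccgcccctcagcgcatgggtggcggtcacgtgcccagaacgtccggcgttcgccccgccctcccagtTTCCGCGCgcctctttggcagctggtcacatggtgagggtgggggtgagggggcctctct

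p57 (*CDKN1C*, ENSG00000129757.13), on chromosome 11 from 2883213 to 2885773, showed the largest relative difference of all members. It had 44 counts in the 12 EtOH libraries together, and 1091 in the 12 dex libraries. The gene passed the filter on low counts through the dex libraries alone, so that a difference was built into its being tested. Its level at 1 hour was 0.787 and 0 CPM with dex against 0.347 and 0.503 with EtOH, from 8 and 11 counts. At 3 hours it was 7.64 and 6.74 CPM against 0.204 and 0.497, and at 5 hours 11.7 and 12.5 against 0.410 and 0.333. These values show that the level of *CDKN1C* was not detectably different after 1 hour and was high after 3. At 7 hours it was 12.4 and 12.01 CPM against 0.197 and 0, at 9 hours 9.75 and 11.2 against 0.267 and 0.405, and at 11 hours 11.0 and 13.3 against 0.251 and 0.656.

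From summed counts and library sizes, the ratio of *CDKN1C* with dex over EtOH was 19.6 at 3 hours (149 against 8 counts, with a 95% interval for counting error from 9.69 to 46.2), 32.9 at 5 hours (219 against 8 counts), 32.2 at 9 hours (217 against 7 counts) and 25.8 at 11 hours (272 against 8 counts, interval 12.9 to 60.5). At 7 hours only 2 EtOH counts stood against 226, and the ratio of 125 had an interval from 34.1 to 1036. These intervals cover counting error only, and reads are not independent molecules. All 5 differences were called (edgeR adjusted p = 3.95e-10, 4.93e-16, 6.24e-15, 1.11e-07 and 2.98e-06 from 3 to 11 hours), and no alternative that tested the gene ended a call. Each of its 4 transcripts was called higher at each of these time points. A filter that asks for 10 counts in every library removes the gene. As it was tested through its dex libraries alone, these calls describe the difference and are not separate support for it.

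p27 (*CDKN1B*, ENSG00000111276.10), on chromosome 12 from 12715058 to 12722371, did not keep 1 direction. At 1 hour the dex libraries, at 37.1 and 42.2 CPM, were below the EtOH libraries at 52.1 and 56.7, with a log2 fold change of -0.45 (standard error 0.13, edgeR adjusted p = 0.214) that was not called. The level was 75.9 and 68.7 with dex against 51.9 and 65.8 with EtOH at 3 hours, and 79.0 and 69.9 against 72.6 and 81.5 at 5 hours. At 7 hours it was 63.8 and 60.3 against 47.9 and 49.9, at 9 hours 63.2 and 58.7 against 68.5 and 46.3, and at 11 hours 75.3 and 65.5 against 74.2 and 61.4. The groups overlapped at 5, 9 and 11 hours. The only call was at 7 hours, with a log2 fold change of 0.35 (standard error 0.10, edgeR adjusted p = 0.00773), and it was lost without dex replicate 1 (edgeR adjusted p = 0.173) and in a single fit over 24 libraries (edgeR adjusted p = 0.128). At that hour the dex libraries were below those at 3 and 5 hours, and the mean of the EtOH libraries was lower than at any other time point. Without dex replicate 2 the gene was called lower at 1 hour (log2 fold change -0.54, edgeR adjusted p = 0.00904) and higher at 3 hours (0.35, edgeR adjusted p = 0.0891). It was also called higher at 3 hours without EtOH replicate 2 (0.46, edgeR adjusted p = 0.0317) and at 9 hours without EtOH replicate 1 (0.41, edgeR adjusted p = 0.00669). With all libraries and no filter on low counts it was called lower at 1 hour (edgeR adjusted p = 0.0839). The log2 fold change was thus negative at 1 hour and positive at 3 and 7 hours, and whether these values were called depended on single libraries or on the fit.

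In the sum of the 3 CIP/KIP genes per kilobase, *CDKN1C* took 0.853% or less in each EtOH library and 5.45% to 9.11% in each dex library from 3 hours on. At 1 hour it took 1.43% and 0% with dex. Counted by the longest of its transcripts in place of the one with most counts, its median level in the dex libraries is 5.71 and not 9.27 CPM per kilobase, so the shares depend on which transcript is present. p21 (*CDKN1A*), which mediates arrest after p53 activation and is induced in other settings too, was the largest part in both treatments, with 54.8% to 67.3% with EtOH and 66.3% to 74.6% with dex.

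Levels of different genes were compared as CPM per kilobase of the transcript with most counts, with the counts of all transcripts summed. That transcript held 19.78% of the counts for *CDK4* and 15.53% for *CCND3*, against 97.66% for *CCND1*. How reads with several matching transcripts were placed is not given, and 32.02% of the stretches of *CDK4* are shared on the other strand. The order of the genes may depend on both. In the EtOH libraries *CDK4* had the highest level, with a median of 71.6 CPM per kilobase (66.0 to 74.2 over 12 libraries), followed by *CCND1* with 48.5 (42.8 to 52.6). *CDK2* with 37.6 and *CCND3* with 37.4 came next and overlapped. *CDKN1B* with 22.2 and *CDK6* with 21.8 overlapped as well, and the range of *CDK6* (16.5 to 26.9) just reached the highest library of *CCNE1* (median 12.4). *CCNE2* was at 2.92, and *CDKN1C* with 0.285 and *CCND2* with 0.0157 were the lowest and overlapped at 0. In the dex libraries *CCND1* with 68.0 and *CDK4* with 66.4 overlapped at the top. *CDK2* with 29.8, *CDKN1B* with 24.3, *CCND3* with 22.9 and *CDK6* with 16.1 each overlapped with the next. *CDKN1C*, with a median of 9.27 (0 to 11.1), stood between *CCNE1* with 10.4 and *CCNE2* with 2.09. The libraries of 6 time points enter each range, so for the genes that changed with time the dex ranges also hold that change.

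**Figure D4:**
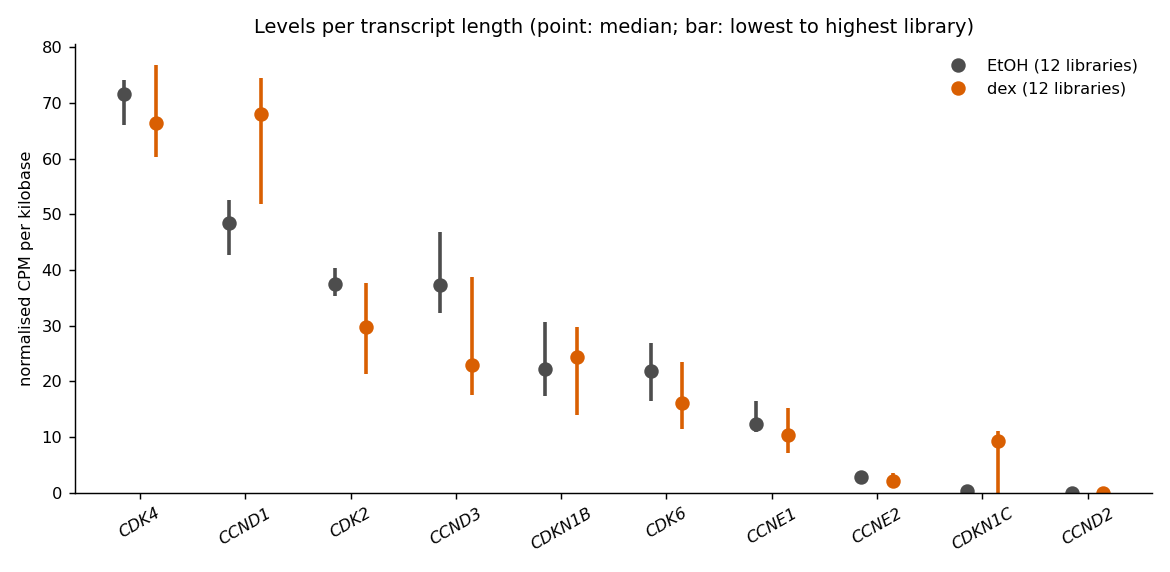
Level of the 10 members in normalised CPM per kilobase of the transcript with most counts (vertical axis, from 0), in the order of their EtOH medians, with points for the median and bars from the lowest to the highest of 12 EtOH (grey) or 12 dex (orange) libraries. *CDK4* is highest with EtOH (median 71.6), *CCND1* reaches it with dex (68.0 against 66.4), and *CDKN1C* moves from 0.285 to 9.27.

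Whether the effect of dex changed with time was tested in a fit over 24 libraries, as an interaction of treatment with time. It was called for 8 of the 9 members, all but *CDK4*, against 13.8% of all features. As the members were chosen with earlier results of these data known, this count is a description. The smallest adjusted p was that of *CDK2* (edgeR adjusted p = 9.72e-05), followed by *CDKN1C* (0.00163) and *CCNE2* (0.00870). *CDKN1C* entered this test through its dex libraries alone, so its call is a description only. In EtOH alone the level was called as different between time points for 0 of 9 members by edgeR, against a background of 3.33%. At an unadjusted p under 0.05 there were 3 members, *CCNE1*, *CDK6* and *CDKN1B*, and DESeq2 called 1, *CDKN1B* (adjusted p = 0.0459). Without EtOH 9 h replicate 1 edgeR called 3 members (*CCND3*, *CDK6* and *CDKN1B*), without EtOH 9 h replicate 2 it called *CDK6* and *CDKN1B*, and it called *CDKN1B* without EtOH 3 h replicate 2 and *CDK6* without EtOH 5 h replicate 2.

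The effect at 11 hours was compared with that at 5 hours by a contrast in the same fit, which was added after the other tests. It differed for *CDK2*, whose log2 fold change was higher at 11 hours by 0.66 (standard error 0.13, edgeR adjusted p = 0.00645), and 2.42% of all features passed this test. *CCNE2* had the larger difference of 0.96 (standard error 0.33), which did not pass (edgeR adjusted p = 0.171). For *CCND1*, *CCND3*, *CDK6* and *CDKN1C*, which were called at both times, the differences were 0.04, -0.18, 0.14 and -0.33 (standard errors 0.12, 0.22, 0.17 and 0.78) and were not called. Their effects at the end of the series were thus not distinguishable from those at 5 hours, with the precision these errors give.

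Of 52 further genes of the G1 network, 50 could be tested, in 6 groups by role. Among them 0 were higher and 1 lower at 1 hour, 5 and 5 at 3 hours, 5 and 23 at 5 hours, 7 and 21 at 7 hours, 6 and 10 at 9 hours, and 5 and 2 at 11 hours. Of all features 0.523%, 7.66%, 9.79% and 5.31% were higher at 1, 3, 9 and 11 hours, and 0.342%, 5.29%, 8.42% and 3.27% lower. At 5 hours 11.2% were higher and 11.9% lower, and at 7 hours 13.4% and 12.4%. The numbers of higher network genes were thus near the background at 5 and 7 hours, and those of lower network genes above it. The 52 genes were listed with earlier results of these data known, so the excess of lower genes describes the list only. The median log2 fold change of the tested network genes was lowest at 5 hours, at -0.25. The hours with most lower genes, 5 and 7, are those at which *CDK2* and *CCNE2* of the members were lowest.

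**Figure D5:**
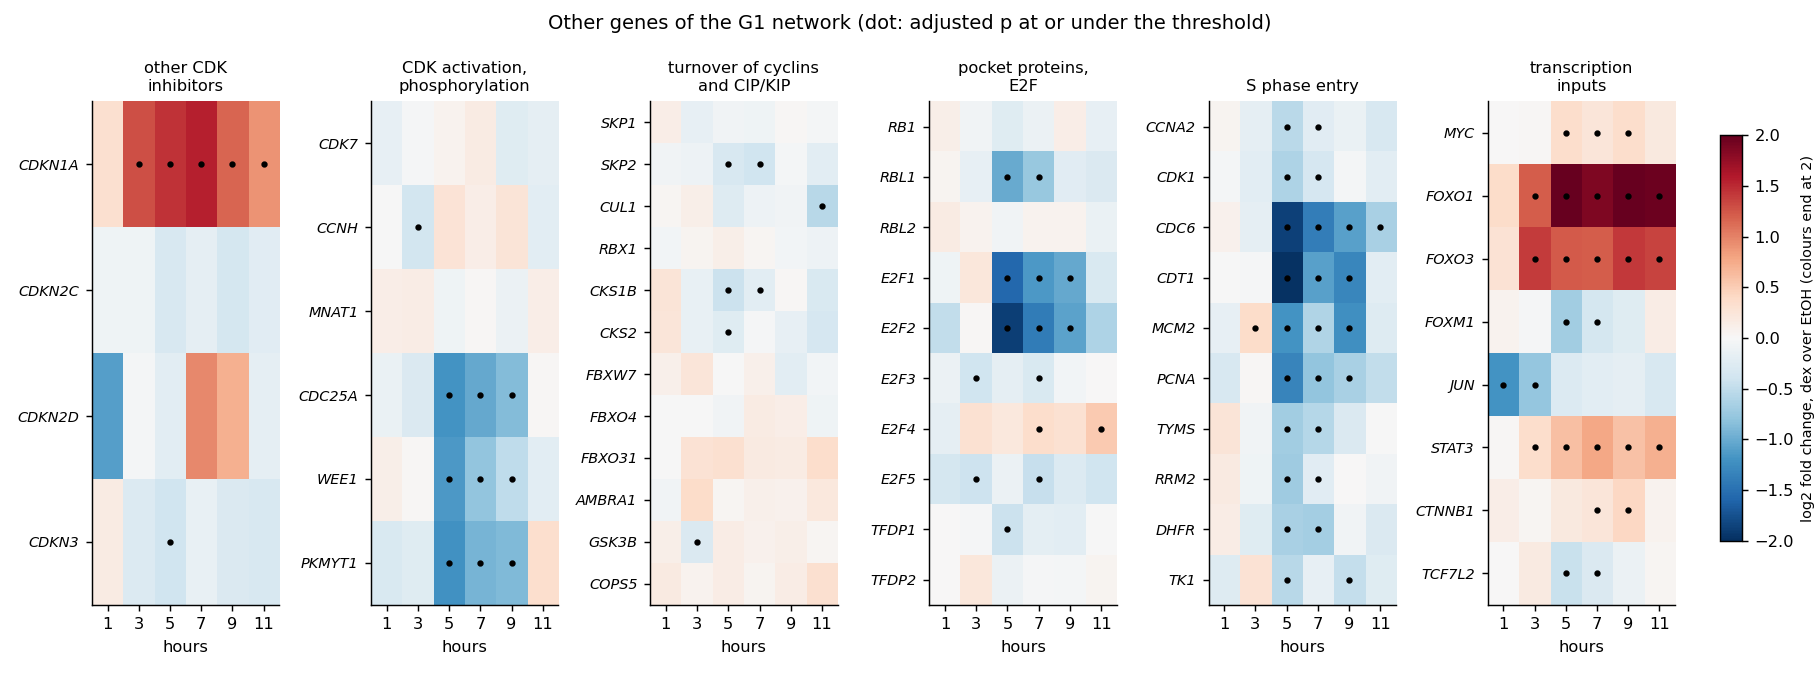
Log2 fold change of dex over EtOH (colour, red higher and blue lower, with the scale ended at 2 in each direction) for the 50 tested genes of the G1 network (rows, in 6 panels by role) at each hour of exposure (columns), with dots for an adjusted p of at most 0.1. At 5 hours all 10 genes of the S phase panel carry a dot and are blue, while *CDKN1A*, *FOXO1*, *FOXO3* and *STAT3* are red with dots from 3 to 11 hours.

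Among the other CDK inhibitors *CDKN1A* was higher at 5 time points, with a log2 fold change of 1.28 at 3 hours, 1.44 at 5 hours, 1.56 at 7 hours (standard error 0.08, edgeR adjusted p = 8.89e-17), 1.16 at 9 hours and 0.91 at 11 hours. Its level at 7 hours was 174 and 172 CPM with dex against 56.7 and 60.9 with EtOH. The EtOH level of *CDKN1A* was called as different between time points (edgeR adjusted p = 0.00776). Group means at 5, 7, 9 and 11 hours were 87.6, 58.8, 80.4 and 98.2 CPM with EtOH. With dex they were 238, 173, 178 and 184 CPM, so the largest fold change was not at the highest dex level. *CDKN2A* had 0 counts in 24 libraries, which allows a level of up to 0.0123 CPM (3 counts over all libraries, counting error only), and its neighbour *CDKN2B* had 3 counts. Of the remaining 3 inhibitors tested, *CDKN3* was called lower at 5 hours. Hence 2 CIP/KIP genes, *CDKN1A* and *CDKN1C*, were higher from 3 to 11 hours, and *CDKN1B* was called at 1 of these times.

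The genes that set the activating and inhibiting phosphorylation of CDKs included 3 of 6 that were lower at 5, 7 and 9 hours. The shares of all features called lower at these hours were 11.9%, 12.4% and 8.42%. The phosphatase *CDC25A*, which removes inhibitory phosphates from CDK2, was lower by a log2 fold change of -1.20 at 5 hours (standard error 0.18, edgeR adjusted p = 7.13e-07). *WEE1* and *PKMYT1*, kinases that add inhibitory phosphates to CDKs, had -1.15 and -1.22 at the same hour (edgeR adjusted p = 1.61e-10 and 6.63e-05). The subunits of the CDK-activating kinase, *CDK7*, *CCNH* and *MNAT1*, were not called at 5 hours or later. Of 12 genes for the turnover of cyclins and CIP/KIP proteins, 1 was lower at 3 hours (*GSK3B*), 3 at 5 hours, 2 at 7 hours and 1 at 11 hours (*CUL1*), where 5.29%, 11.9%, 12.4% and 3.27% of all features were called lower, and nothing particular to so small a group is read from these counts. *SKP2*, the F-box protein that targets p27 for degradation, was at a log2 fold change of -0.39 at 7 hours (standard error 0.10, edgeR adjusted p = 0.00265), and its cofactor *CKS1B* had -0.42 at 5 hours (standard error 0.11, edgeR adjusted p = 0.00348).

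Among 10 genes of pocket proteins and E2F partners, 4 were lower at 5 hours and 5 at 7 hours, when 1 was higher. The shares of all features were 11.9% lower at 5 hours, and 12.4% lower and 13.4% higher at 7 hours. *E2F2* and *E2F1*, which activate transcription, were at a log2 fold change of -1.88 and -1.57 at 5 hours (edgeR adjusted p = 1.13e-09 and 7.67e-14), and the pocket protein gene *RBL1* had -1.001. *RB1* itself was not called at any time point. In the group of the next cyclin-CDK pair and S phase entry 1 gene was higher at 3 hours (*MCM2*, log2 fold change 0.37), and all 10 were lower at 5 hours, 9 at 7 hours, 5 at 9 hours and 1 at 11 hours. The shares of all features called lower at the last 4 time points were 11.9%, 12.4%, 8.42% and 3.27%. The licensing factors *CDT1* and *CDC6* had -1.98 and -1.87 at 5 hours (edgeR adjusted p = 4.37e-10 and 1.02e-17), and *PCNA*, the clamp of the replicative polymerases, had -1.33. *CDC6* was the one still called at 11 hours, at -0.65.

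Of 8 genes that feed into the transcription of D-type cyclins and p27, 4 were higher and 2 lower at 5 hours, and 5 were higher and 2 lower at 7 hours. The shares of all features were 11.2% higher and 11.9% lower at 5 hours, and 13.4% and 12.4% at 7 hours. For *FOXO1*, a transcription factor with *CDKN1B* among its known targets, the log2 fold change was 2.16 at 5 hours (standard error 0.17, edgeR adjusted p = 1.02e-14), and for *FOXO3* it was 1.41 at 9 hours (standard error 0.12, edgeR adjusted p = 6.95e-07). *JUN*, an AP-1 factor that acts on *CCND1*, was the network gene lower at 1 hour, with -1.20 (standard error 0.17, edgeR adjusted p = 0.000381), and it was also lower at 3 hours. *CCND1* was not lower at these hours, and a link between the levels of *JUN* and *CCND1* was not tested.

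The genes most like 2 members in pattern were ranked by Pearson's r of mean log2 CPM over the 12 groups among 15336 genes. The members were those with the highest and lowest mean log2 fold change among the members called at consecutive time points. For *CDKN1C* the first 5 were *UNC5B* (r = 0.995), *DENND3*, *PPL*, *TMEM164* and *SLC45A4* (r = 0.991). For *CCND3* they were *SRC* (r = 0.989), *ARHGEF40*, *KCTD15*, *GLI1* and *TMEM92* (r = 0.981). The 12 groups share treatment and time, and with so many genes ranked a high r is a description only.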

How the data were processed

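The authors mapped single-end reads of stranded poly-A libraries to GENCODE release 19 transcripts with Bowtie (hg19, with SAMtools, in the submitters' processing notes) and deposited a count of reads per transcript, not scaled for depth or length. The handling of reads with several matching transcripts, and of strand, is not given in the sources used here. The row for unplaced reads holds 0 counts.

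Genes were assigned by transcript identifier, without version, from GENCODE release 29 (GRCh38). This matched 110262 of 119207 transcripts, with 94.08% of the counts, and counts were summed per gene, while the other transcripts stayed in the fits as features of their own. Groups came from the sample labels. The labels' treatment text gives 1 hour for every library, and the duration in the same labels was used. With 6708864 to 13748598 counts per library, the biological coefficient of variation between replicates was 6.48% to 12.7%.

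Counts were tested with edgeR 4.0.16 in R 4.3.3 (TMM, filterByExpr over 12 groups, robust quasi-likelihood F-test, Benjamini-Hochberg adjustment, threshold 0.1), which was tested on simulated data first. A standard error is the size of the log2 fold change over the root of F. The alternatives were DESeq2 1.42.0, its size factors, no filter, at least 10 counts in every library, a replicate block, a single fit over 24 libraries, 1 transcript per gene, a threshold of 0.05, and leaving out each library. Log2 CPM for the ranking by likeness used a prior count of 2. Figures were drawn with matplotlib 3.10.9.

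The members and gene lists were chosen with earlier results of these data known. Named network genes were, in each role, the 3 with the largest change among those called at 2 consecutive time points in the same direction, with *CDKN1A*, *CDKN2A* and *CDKN2B* always given. *INTS8*, *TSPAN31*, *LTO1* and other genes outside this rule were named after their values were seen. Promoters came from RefSeq (GRCh38.p14).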

Additional observations from a re-analysis of the deposited data

Results flagged for a closer look

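The effect of dex differed between time points, by the interaction of treatment with time in the quasi-likelihood F-test of edgeR, adjusted over all features, for 8 members. The adjusted p was 9.72e-05 for *CDK2*, 0.00163 for *CDKN1C*, 0.00870 for *CCNE2*, 0.0236 for *CCND1*, 0.0582 for *CCNE1*, 0.0611 for *CCND3*, 0.0688 for *CDK6* and 0.0770 for *CDKN1B* in edgeR. Of these, *CDKN1C* passed the filter on low counts through its dex libraries alone. For *CDK2*, *CDKN1C* and *CCNE2* the call was made in each of 24 refits that left out 1 library. The interaction of *CCND1* was lost in 2 of them (without dex 1 h replicate 1 and without EtOH 1 h replicate 2) and that of *CCND3* in 3 (without dex 1 h replicate 2, dex 9 h replicate 1 and EtOH 1 h replicate 1). *CCNE1* was called in 18 of the 24 refits and missed the threshold without each of the 4 libraries of 7 h and without replicate 2 of either treatment at 3 h. *CDK6* was called in 15 refits. It missed the threshold without dex 1 h replicate 1, EtOH 1 h replicates 1 and 2, dex 5 h replicate 2, dex 7 h replicates 1 and 2, EtOH 7 h replicate 1 and dex 9 h replicates 1 and 2. *CDKN1B* was called in 10 refits. It was not called without any single library of 1 h or 7 h, and it was also not called without replicate 1 of either treatment at 3 h, replicate 2 of either treatment at 5 h, or either dex library of 9 h.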

How the results depend on the processing

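No value of a member changed its sign among the calls, and 25 of 588 alternative values crossed the threshold, 18 of them when 1 library was left out. A filter of 10 counts in every library gave no value for *CDKN1C*. Nothing in the labels ties equal replicate numbers to each other, and the correlation of same-numbered deviations was 0.135 at 1 hour, 0.102 at 9 hours and between -0.0588 and 0.0260 at the other time points, so the numbers were not taken to pair the samples. In a fit with a replicate block, 634 features in place of 172 were called at 1 hour, with 1 member in place of 0 (*CDKN1B*, lower, edgeR adjusted p = 0.00283), and *CDK6* was not called at 3 hours (edgeR adjusted p = 0.110). No filter gave 307 features and 1 member (*CDKN1B*) at 1 hour, and 2 members in place of 0 over time in EtOH, where DESeq2 gave 1. DESeq2 called 1324 features at 3 hours, 2660 at 5, 2727 at 7 and 2032 at 9 hours, against 2576, 4606, 5132 and 3624. With 1 transcript per gene, which tests fewer features, the counts were 1505, 2826, 3225, 2119 and, at 11 hours, 1051 against 1707. A single fit over 24 libraries gave 2971 at 11 hours. The interaction was called for 4 members in place of 8 with 1 transcript per gene, and for 4 at a threshold of 0.05.

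Leaving out 1 library gave 94 (without EtOH replicate 2) to 762 features (without dex replicate 2) at 1 hour, 1542 (without EtOH replicate 1) to 3010 at 3 hours, 3530 to 3973 at 5 hours, 2660 (without dex replicate 1) to 5898 at 7 hours, 1298 (without dex replicate 2) to 6105 (without EtOH replicate 1) at 9 hours and 856 (without EtOH replicate 1) to 5870 (without dex replicate 1) at 11 hours. Members called ranged from 0 to 1 at 1 hour, 3 to 5 at 3 hours, 6 to 6 at 5 hours, 7 to 8 at 7 hours, 2 (without either dex library) to 6 at 9 hours and 2 (without either EtOH library) to 4 at 11 hours, from 5 to 8 for the interaction and from 0 to 3 for time in EtOH. The cause of these differences was not tested. With 2 libraries per group, calls rest on dispersions shared between features, and counts under about 10 per library limit *CCND2* and the EtOH level of *CDKN1C*.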
